A study of Mus musculus with 16 samples.

Results

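The 10 immediate early response genes Fos, Fosb, Jun, Junb, Egr1, Egr3, Ier2, Atf3, Dusp1 and Nr4a1 were followed by symbol in the 3 stage tables of a mouse study of the microRNA miR-302. They are 10 of the 24421 genes that each table lists. RNA-seq libraries were made from miR-302 knockout (KO) and wild-type (WT) embryos of the strain C57BL/6, and 15 libraries were analysed. At embryonic day 7.5 (E7.5) there were 2 KO and 2 WT libraries of whole embryos, which were lysed intact in Trizol-LS and frozen. At E8.5 there were 4 KO libraries and 3 WT libraries (WT1_5s, WT2 and WT3) of Wnt1-Cre+ neural crest cells. At E9.5 there were 2 KO and 2 WT libraries of Sox10+ neural crest cells. Cells of both later stages were collected by flow sorting straight into Trizol-LS. Wnt1-Cre marks cells of the dorsal neural tube and the neural crest that leaves it, so the E8.5 cells need not all be migrating crest. The labels do not describe the deleted allele, the dissociation or the time from dissection to lysis. Nor do they tie libraries to separate embryos or litters, and each p-value therefore reflects library-to-library spread, which may be technical.

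Immediate early genes are switched on within minutes of a growth factor, stress or mechanical stimulus, without new protein synthesis, through MAP kinases and factors already present in the cell, such as SRF with its ELK partners and CREB. Fos, Fosb, Jun and Junb encode subunits of the transcription factor AP-1, and Atf3 encodes a stress-induced factor that pairs with Jun proteins. Egr1 and Egr3 encode zinc-finger factors, Nr4a1 an orphan nuclear receptor, Ier2 a small nuclear protein, and Dusp1 a phosphatase that switches MAP kinases off again. Enzymatic and mechanical dissociation of a tissue is a known inducer of these genes, which is why they are often read as a sign of how cells were handled before lysis.

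The start regions of Jun and Fos are shown because the text turns on these AP-1 partners, whose windows hold different motifs among those searched. Jun lies at chr4:95049034-95052222 on the minus strand and Fos at chr12:85473890-85477273 on the plus strand (GRCm38, the build also called mm10). Each sequence below is from RefSeq (GRCm38.p6), runs 5′ to 3′ from 250 bases before to 50 bases after the start of the gene, and has the motifs found in capitals. In the Jun window the capitals mark TTACCTCA, which begins 164 bases before the start, and TGACATCA, which begins 45 bases before it, the letters of the AP-1-like sites known in this promoter. In the Fos window they mark TGACG, the core of the CREB-binding site, 129 and 66 bases before the start, and TATAAA 33 bases before it.
Jun, chr4:95052173-95052472, minus strand: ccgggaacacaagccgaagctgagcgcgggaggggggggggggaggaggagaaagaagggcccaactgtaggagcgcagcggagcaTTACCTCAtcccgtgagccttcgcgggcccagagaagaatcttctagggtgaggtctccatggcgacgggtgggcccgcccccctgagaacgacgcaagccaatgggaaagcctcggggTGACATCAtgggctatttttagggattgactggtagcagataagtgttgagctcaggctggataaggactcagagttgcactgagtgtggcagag
Fos, chr12:85473640-85473939, plus strand: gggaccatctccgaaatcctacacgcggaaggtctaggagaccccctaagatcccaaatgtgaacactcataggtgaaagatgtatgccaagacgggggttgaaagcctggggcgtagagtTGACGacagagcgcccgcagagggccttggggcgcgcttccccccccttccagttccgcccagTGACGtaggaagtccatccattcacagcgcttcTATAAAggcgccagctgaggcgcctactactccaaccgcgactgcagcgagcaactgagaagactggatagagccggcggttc

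Both strands were searched in the 7 members with a sequence in the table and in all 32851 promoters of the same length. TGACG was found in 6 of the 7 (Fos, Fosb, Junb, Atf3, Nr4a1 and Dusp1, not Jun), against 20.8% of all promoters. The longer palindrome TGACGTCA, which contains TGACG, was in Dusp1 alone among the 7 and in 1.79% of all promoters. TGACATCA was in Jun alone among them and in 3.62% of all, and TTACCTCA likewise in Jun and in 0.889% of all. TATAAA was in Junb and Fos, against 13.6% of all promoters. The AP-1 site TGANTCA was in none of the 7, against 7.81%, and the serum response element (the CArG box) in none, against 1.63%. These counts describe letters in a short window and say nothing about binding. Sites more than 250 bases before the start fall outside it, and Egr1, Egr3 and Ier2 had no sequence. A motif found in none of the 7 may therefore lie further upstream.

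The microRNA removed in the KO acts by pairing of its seed, bases 2 to 8, with messenger 3′UTRs, so the members were also searched for matches to it. The mature miR-302b-3p and miR-302d-3p (RefSeq, chr3:127545275-127545297 and chr3:127545665-127545687, plus strand) share their seed, given here in capitals.
mmu-miR-302b-3p: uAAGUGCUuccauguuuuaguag
mmu-miR-302d-3p: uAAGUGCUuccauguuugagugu
Only Fosb among the 10 members had the 8-letter match AGCACTTA in its longest annotated 3′UTR (GENCODE M21), at base 1688 of 2302, and the other 9 had no 7-letter match to the seed either. Of 21153 genes with a 3′UTR, 3.04% had an 8-letter and 18.4% any such match.
Fosb site, minus strand of chromosome 7: ggttcccaaaaAGCACTTAtatctattatg
Fosb was close to the detection limit in every library, so its level could not be compared between KO and WT at this depth.

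Depth was 4912827 to 9184436 reads at E7.5, 9008784 to 13517860 at E8.5 and 7300598 to 14861728 at E9.5, and 3 reads, the count that a value of 0 still allows, were worth 0.202 to 0.611 RPM (reads scaled to a total of 1000000 reads), by counting error alone. Sox10 was at 662 to 1017 normalised counts in the E8.5 libraries, 511 to 1165 at E9.5 and 0.703 to 4.81 in whole E7.5 embryos, and all 9 neural crest markers were detected in every sorted library. Reads on the 4 miR-302 hairpin genes, Mir302a to Mir302d, were absent from all KO libraries and came to 14 and 25 in E7.5 WT1 and WT2, while the sorted WT libraries held at most 1, so at E8.5 and E9.5 they do not check the genotype. Markers of other cells differed between libraries. The summed level of 8 red-cell markers was 16924.5, 26356.5, 14.4 and 1091 normalised counts in E8.5 KO1 to KO4, against 6.77 to 7.82 in E8.5 WT, and 273763 and 299 in E9.5 KO1 and KO2, against 8.10 and 18.7 in E9.5 WT. At E9.5 the sum of 7 myeloid markers was 159 and 296 in KO, against 4.05 and 5.05 in WT, and that of 5 visceral endoderm markers 665 and 1763 in KO, against 26.3 and 24.2 in WT. Ttr, Apoa1 and Rbp4 carried the latter KO sums. Amn was lower in KO, at 0 and 5.10 against 9.11 and 8.58 in WT, and Afp reached at most 1.06. In whole E7.5 embryos the sum of 5 trophoblast markers was 27081 and 48744 in KO, against 9224 and 5204 in WT. Prl3d1 carried most of each sum, at 24270 and 44351 in KO, against 7965 and 4380 in WT. Elf5 did not share the difference, at 40.4 and 79.3 in KO, against 83.6 and 72.9 in WT. In such bulk samples, fewer cells of a type and less RNA per cell cannot be told apart.

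Across the stages, Fos and Junb were lower in the sorted neural crest cells than in intact embryos, and Ier2 was higher. Fos was close to absent at E8.5. The tables were normalised separately, so levels across stages are given in RPM as a description with no test, and stage, tissue and sorting cannot be told apart.

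Fos was at 9.83 to 29.2 RPM in the 4 E7.5 libraries (median 16.2), at 0.209 to 1.59 RPM in the 7 E8.5 libraries (median 0.666) and at 0.875 to 7.45 RPM in the 4 E9.5 libraries (median 4.10). Every sorted library was below every whole-embryo library. In reads, E8.5 libraries held between 2 and 19 Fos reads each, near the floor of 3. The E7.5 median was 24.3 times the E8.5 median and 3.95 times the E9.5 median. On the deposited scale of normalised counts the E9.5 and E7.5 libraries overlapped for Fos, since E9.5 KO1 was at 97.1 and E7.5 WT2 at 72.9, while E8.5 stayed below E7.5.

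Junb, at chr8:84974484-84978718, followed the same order. Its level was 36.9 to 74.2 RPM at E7.5 (median 56.8), 7.35 to 13.7 at E8.5 (median 10.7) and 10.1 to 13.7 at E9.5 (median 12.5), with both sorted stages below every whole-embryo library. The 2 sorted stages overlapped.

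Ier2, at chr8:84661331-84662852, ran the other way. It was at 51.0 to 87.1 RPM at E7.5 (median 73.7), 172 to 242 at E8.5 (median 199) and 134 to 219 at E9.5 (median 148), so that each sorted library was above each whole-embryo library. The E8.5 median was 2.7 times and the E9.5 median 2.01 times that of E7.5. Of the 10 members, Fos and Junb had E8.5 wholly below E7.5, against 18.6% of 12990 genes with a mean of at least 1 RPM. Fosb and Egr3 did not reach that level in any library. Only Ier2 was wholly above, against 9.05% of genes. The same members stood apart between E9.5 and E7.5, against 21.6% of genes wholly below and 6.37% wholly above. With so few members, these counts do not set the members apart from all genes. Between E9.5 and E8.5 every member overlapped, against 1.40% of genes wholly above and 5.99% wholly below.

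The other members overlapped between the stages in RPM. Jun was at 12.5 to 37.2 RPM at E7.5, 7.99 to 52.1 at E8.5 and 8.72 to 71.4 at E9.5, and Egr1 at 0.847 to 4.27, 0.888 to 6.88 and 2.21 to 25.6 RPM. On the deposited scale the E9.5 libraries, at 32.3 to 189, were all above those of E7.5 for Egr1, at 6.28 to 29.2. Dusp1 was at 22.9 to 36.8 RPM at E7.5, 13.7 to 27.7 at E8.5 and 11.4 to 36.4 at E9.5. Atf3 stayed at or below 4.86 RPM, Nr4a1 lay between 2.37 and 9.62 RPM, and Fosb and Egr3 reached at most 0.794 RPM in any library. Egr3 had no read in any E7.5 library.

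Set side by side per length, in median RPM per kilobase of exon, Ier2 was the most abundant member at every stage, with 48.4 in E7.5, 131 in E8.5 and 97.1 in E9.5 libraries. Junb came next at E7.5 with 31.4, then Dusp1 with 14.8, Fos with 7.68 and Jun with 6.89. At E8.5 Dusp1 (6.97), Junb (5.93) and Jun (3.60) followed Ier2, and Fos was the lowest of the 8 detected members at 0.316, beside Egr1 at 0.350. At E9.5 Dusp1 (8.35), Junb (6.89) and Jun (6.47) again followed Ier2, with Fos at 1.95. Among the AP-1 genes at E8.5, Jun and Junb were thus well above the floor in every library, with Fos near it and Fosb at it.

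**Figure D1:**
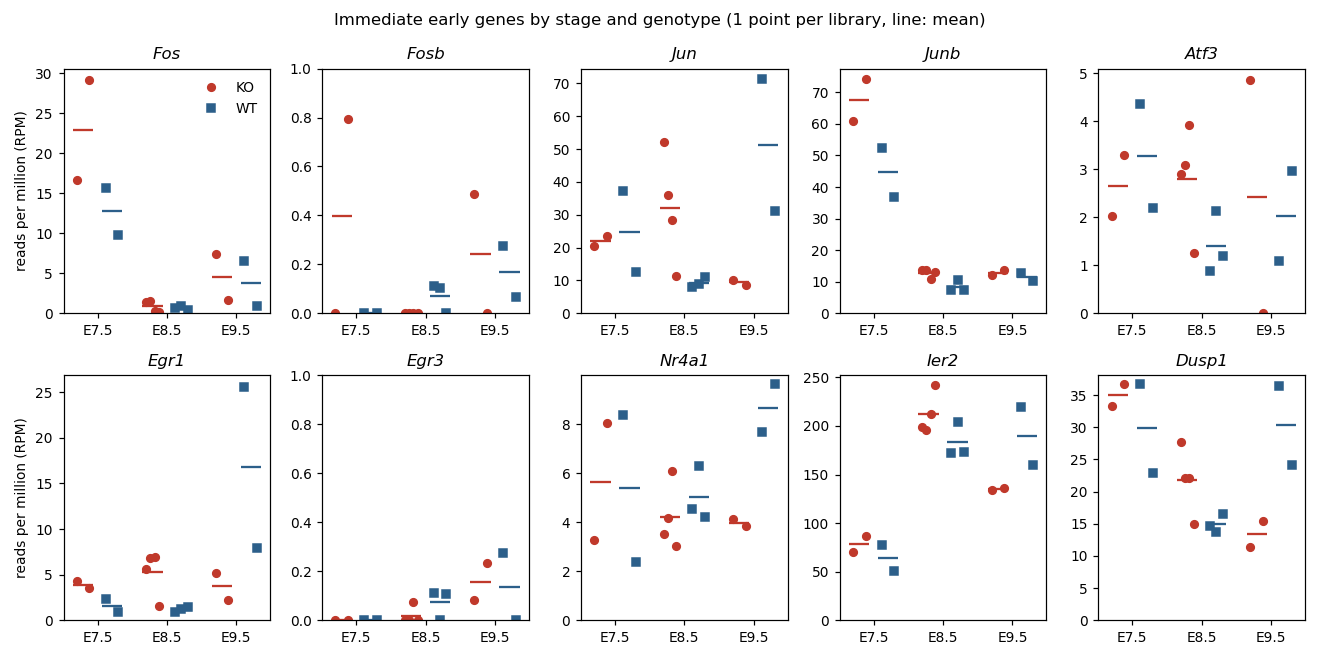
RPM of each member in every library on linear axes from 0, E7.5, E8.5 and E9.5 from left to right, with KO circles left of WT squares, 1 point per library and a line at each group mean. Fos at E8.5 lies between 0.209 and 1.59 RPM, below all E7.5 libraries, Junb shows the same step, and Ier2 in both sorted stages lies above all E7.5 libraries.

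In whole E7.5 embryos, Fos, Junb and Egr1 had higher values in both KO libraries than in both WT libraries, and none passed the test. Fos was at 114 and 206 normalised counts in KO, against 101 and 72.9 in WT. Its log2 fold change was 0.83 ± 0.41 (SE; limma, adjusted p = 1.0), and within code number 239 KO1 lay 1.13-fold above WT1 and 1.56-fold above WT2. Junb was at 417 and 524 in KO, against 339 and 274 in WT, with a log2 fold change of 0.62 ± 0.30 (SE; limma, adjusted p = 1.0). Egr1, at chr18:34859823-34864984, was at 29.2 and 24.8 in KO, against 14.8 and 6.28 in WT, from 5 to 31 reads a library. Its log2 fold change was 1.38 ± 0.68 (SE; limma, adjusted p = 1.0).

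The remaining members overlapped between the E7.5 genotypes. Jun was at 139 and 167 in KO, against 240 and 93.0 in WT, so that the WT libraries spanned the KO values. Ier2 was at 480 and 615 in KO, against 498 and 378 in WT, and Dusp1 at 228 and 260 in KO, against 238 and 170 in WT. Nr4a1 was at 22.3 and 56.9 in KO, against 54.1 and 17.6 in WT, a spread within genotype larger than that of 93.6% of tested genes. Atf3 was at 13.9 and 23.2 in KO, against 28.1 and 16.3 in WT. Fosb had 7 reads in KO2 and none elsewhere. Of 8 members above the low-value limit, a mean of 10 normalised counts, 0 were called at an adjusted p of 0.05, where 0% of 12492 genes were by limma or by edgeR and 0.272% by DESeq2, and none had an unadjusted p below 0.05, where 3.08% of genes did. The 3 members without overlap, all higher in KO, stand against 28.7% of all genes without overlap and 16.1% with KO above WT. Ranks of single libraries were counted for the members only, with no share over all genes to set beside them. WT2 was the lowest library in 7 of the 8 members, and KO2 was the highest in 5, WT1 in 2 and KO1 in 1. The trophoblast marker sums above, carried mostly by Prl3d1, were also highest in KO2 and lowest in WT2, while Elf5 did not have this order. The sum of 6 decidua and uterine gland markers was 6038 and 5966 in KO, against 7524 and 10010 in WT, and WT2 stood apart for Prss29, at 6058 against 139 in WT1 and at most 6.96 in KO. Another of the 6, Prl8a2, went the other way in WT2, at 294 against 6897 in WT1 and 5952 and 5925 in KO. The part of these cells in the members' values was not tested.

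In the E8.5 Wnt1-Cre+ cells, Jun and Egr1 were higher in all 4 KO libraries than in any WT library, by 2.7-fold and 3.37-fold in the fit, and neither passed the adjusted threshold without pairing of the libraries. The difference was carried by KO1, KO2 and KO3, and KO4 lay close to WT. On the deposited scale the genotypes overlapped for the other AP-1 genes.

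Jun was at 535, 378, 230 and 128 normalised counts in KO1 to KO4, against 97.5, 109 and 99.7 in WT1_5s, WT2 and WT3. The WT libraries were close to each other, while the KO libraries spread over a wide range, and KO4 was only just above WT2. The means were 318 ± 178 in KO (SD, n = 4) and 102 ± 6.28 in WT (SD, n = 3). The log2 fold change was 1.44 ± 0.42 (SE; limma, unadjusted p = 0.0065, adjusted p = 0.805).

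Egr1 followed the same libraries. It was at 58.0, 71.8, 55.9 and 17.4 in KO1 to KO4, against 10.8, 14.7 and 12.7 in WT, from 15 to 93 reads in KO and 8 to 13 in WT. KO1 to KO3 were close to each other and well above WT, and KO4 stood apart from them next to WT2. The means were 50.8 ± 23.4 in KO (SD, n = 4) and 12.8 ± 1.95 in WT (SD, n = 3), with a log2 fold change of 1.75 ± 0.50 (SE; limma, unadjusted p = 0.0052, adjusted p = 0.777).

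Deviations of libraries with the same replicate number correlated at 0.179 to 0.493 at this stage. Such libraries have different code numbers, and the pairing was chosen from these same values. With the replicate number as a block, which leaves out KO4, the values were 1.81 for Jun (adjusted p = 0.0175) and 2.19 for Egr1 (adjusted p = 0.0220) on the log2 scale by limma. The same fold changes were found without KO4 and with no block, at adjusted p = 0.189 for Jun and 0.134 for Egr1, so the larger folds come from leaving out KO4. With the block 2 of 7 tested members were called, against 5.42% of genes. Over 20 alternatives the adjusted p for Jun ran from 0.0175 to 1.0, and over 19 that for Egr1 from 0.0220 to 1.0, each with the same direction throughout. In the authors' deposited table of higher genes Jun had a log2 fold change of 1.64 (SE 0.436, adjusted p = 0.0650) and Egr1 one of 2.0 (SE 0.541, adjusted p = 0.0691).

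The code numbers in the library labels, whose meaning the labels do not give, allow 1 matched pair. KO4 and WT2 share the number 169, and there Jun was at 128 against 109, 1.16-fold higher in KO, and Egr1 at 17.4 against 14.7, 1.17-fold higher. KO1 and KO2 share the number 128 with no WT library. Without them, the log2 fold changes were 0.74 for Jun and 1.24 for Egr1 (limma, adjusted p = 1.0 for both). With the numbers 163 and 169 set against the others as a block they were 1.12 for Jun (adjusted p = 0.397) and 1.36 for Egr1 (adjusted p = 0.395). KO1 and KO2 are also the libraries with red-cell marker sums of 16924.5 and 26356.5. In KO3 the red-cell sum was 14.4, with the embryonic globin genes Hbb-bh1, Hbb-y and Hba-x at 0, and Jun was at 230 and Egr1 at 55.9. The sum of 6 endothelial markers was 233, 64.5, 167 and 25.5 in KO1 to KO4, against 51.6 to 62.3 in WT. KO3 held the highest myeloid sum of the stage, 58.9 against at most 6.77 in the other E8.5 libraries. Lyz2 alone made up 51.7 of it, and Ptprc, Cx3cr1 and Mrc1 had no read in KO3, so that sum does not show myeloid cells. The part of other cell types in the Jun and Egr1 values was not tested.

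**Figure D2:**
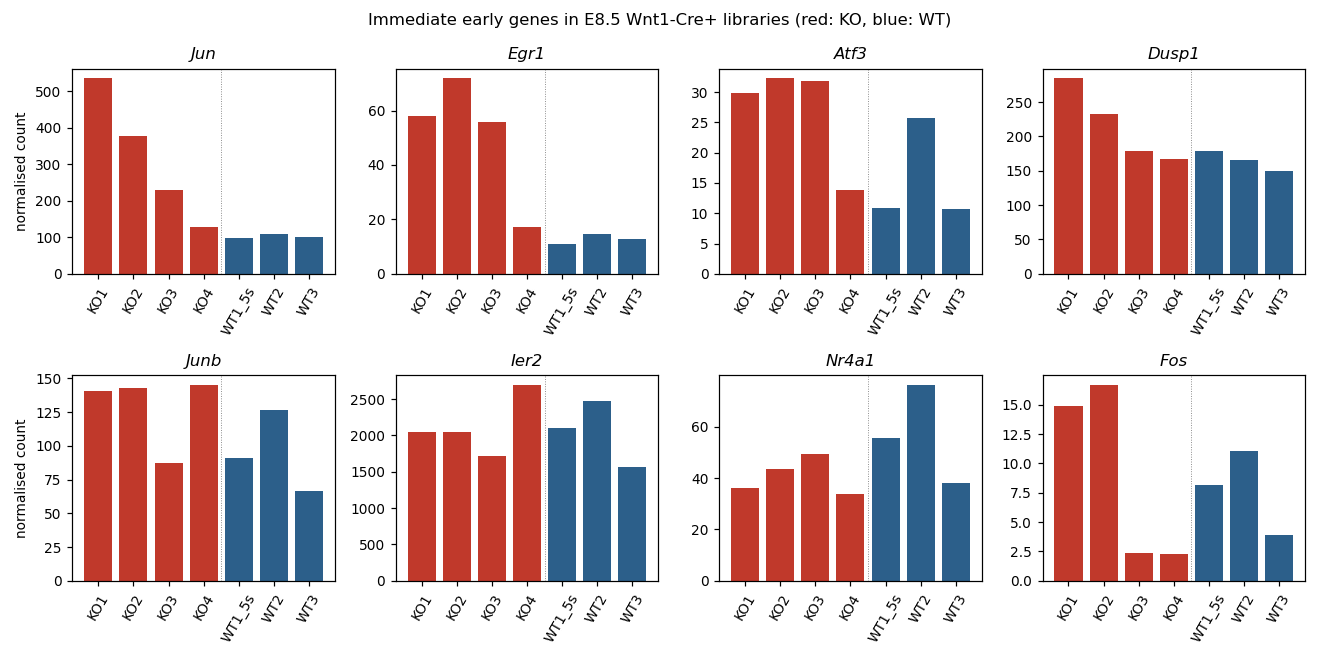
Normalised counts of 8 members in each E8.5 library, 1 bar per library, with KO (red) left of WT (blue). Jun is spread from 128 to 535 over the 4 KO libraries, and the 3 WT libraries sit at 97.5 to 109; Egr1 is at 55.9 to 71.8 in KO1 to KO3 and at 17.4 in KO4.

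The other AP-1 genes were measured in the same libraries. Junb was at 140, 143, 87.2 and 145 in KO1 to KO4, against 90.8, 127 and 66.5 in WT, with a log2 fold change of 0.46 ± 0.31 (SE; limma, adjusted p = 0.857). In RPM the Junb groups did not overlap, at 10.7 to 13.7 in KO and 7.35 to 10.4 in WT. The share of all genes without overlap in RPM was not computed, so this is no trait of Junb. With total read scaling the median log2 fold change of all genes at E8.5 was 0.12, against −0.03 on the deposited scale. Fos was at 14.9, 16.7, 2.41 and 2.32 in KO, against 8.13, 11.1 and 3.91 in WT, under the low-value limit and not tested. Fosb had no read in KO and 1 read each in WT1_5s and WT2. Atf3 was at 29.8, 32.3, 31.9 and 13.9 in KO, against 10.8, 25.8 and 10.8 in WT, with KO4 again apart from the other KO libraries and WT2 apart from the other WT libraries. Its log2 fold change was 0.78 ± 0.48 (SE; limma, unadjusted p = 0.132).

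The nuclear receptor, the abundant member and the phosphatase stayed within the spread of the libraries. Nr4a1 was at 36.0, 43.7, 49.3 and 33.6 in KO, against 55.5, 76.2 and 38.1 in WT (log2 fold change −0.43 ± 0.34, SE). Ier2 was at 2042, 2051, 1723 and 2692 in KO, against 2099, 2472 and 1568 in WT (log2 fold change 0.06 ± 0.24, SE). Dusp1 was at 284, 232, 179 and 167 in KO, against 179, 166 and 150 in WT (log2 fold change 0.36 ± 0.25, SE). Egr3 had a value above 0 in KO3, WT1_5s and WT3 only, at most 1.35. None of Nr4a1, Ier2 and Dusp1 had an unadjusted p below 0.05, and in the pair that shares the number 169 their KO4 over WT2 ratios were 0.449 for Nr4a1, 1.09 for Ier2 and 1.01 for Dusp1.

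Over the stage, 0 of 7 tested members were called by limma at an adjusted p of 0.05, where 0% of 12257 genes were (0.261% by DESeq2, 0% by edgeR). Jun and Egr1 were the 2 members with an unadjusted p below 0.05, against 6.05% of genes (742 of 12257; 3.14% higher in KO), and the 2 without overlap, against 6.54% (3.71% higher in KO). The libraries ranked members differently: KO1 and KO2 were above all WT libraries for 5 of 7 members each, KO3 and KO4 for 4 of 7 each, and WT3 was the lowest library for 4 of 7. The shares of all genes with such ranks were not computed, so these counts describe the libraries and no trait of the members.

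In the E9.5 Sox10+ cells Jun was lower in KO, 2.71-fold, and was the member that passed the test. Junb and Ier2 were higher in both KO libraries than in both WT libraries, Nr4a1 was lower in both, and none of these passed. A large share of all genes differed at this stage, and code number 171 covers both KO libraries and 209 both WT libraries, so that code and genotype cannot be told apart.

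Jun was at 131 and 128 normalised counts in KO, against 528 and 234 in WT. The KO libraries were nearly equal, and WT1 was far above WT2. The means were 129 ± 2.4 in KO and 381 ± 207 in WT (SD, n = 2 each). The log2 fold change was −1.44 ± 0.44 (SE; limma, adjusted p = 0.0449), with adjusted p = 0.0412 by edgeR and 0.0104 by DESeq2, over a range of 0.0104 to 0.373 in 15 alternatives, all in the same direction. Without WT1 the log2 fold change was −0.85 (adjusted p = 0.373). The adjusted p also missed the threshold without KO1 (0.0989), without KO2 (0.0979), with quantile normalisation (0.142), with a pseudocount of 0.1 (0.0514) and with no minimum on low values (0.0924). The authors' deposited table of lower genes gave Jun a log2 fold change of −1.56 (SE 0.512, adjusted p = 0.00898). Jun was at 131 in KO1, whose red-cell marker sum was 273763, and at 128 in KO2, whose sum was 299. The sum of the 9 neural crest markers was 1875 and 3883 in KO, against 4884 and 4715 in WT, and 3 of the 9 were called lower in KO. The myeloid and visceral endoderm sums were higher in both KO libraries than in WT, though the visceral endoderm markers Amn and Afp did not share in this. The part of these in the Jun values was not tested.

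Egr1 was at 67.6 and 32.3 in KO, against 189 and 59.5 in WT, with overlap. Its log2 fold change was −1.17 ± 0.72 (SE; limma, adjusted p = 0.225), −0.34 without WT1 to −1.99 without WT2. With the length and GC trend removed it was −0.45, beside a median of −0.45 over all genes. Jun and Egr1 had fold changes of opposite sign at E9.5 and E8.5, in cells sorted on different markers. For Jun the log2 fold change at E9.5 minus that at E8.5 was −2.87. That difference was not tested, since the tables were normalised separately.

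None of the other AP-1 genes passed the test at E9.5. Junb was at 157 and 201 in KO, against 95.2 and 75.7 in WT, with a log2 fold change of 1.06 ± 0.35 (SE; limma, adjusted p = 0.0563; 0.0207 to 0.687 over 15 alternatives, 14 of them in the same direction). In the authors' deposited table of higher genes it had 1.07 (SE 0.521, adjusted p = 0.105). Fos was at 97.1 and 23.8 in KO, against 48.6 and 6.56 in WT. Each genotype held a high and a low library, with 92 and 14 reads in KO and 48 and 13 in WT. Atf3 was at 63.3 and 0 in KO, against 8.10 and 22.2 in WT, so that KO1 held the highest and KO2 no read at all. Its pooled spread was above that of 99.5% of tested genes. Fosb was at 6.33 and 0 in KO and 2.03 and 0.505 in WT.

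Ier2 was at 1742 and 1986 in KO, against 1619 and 1199 in WT (log2 fold change 0.42 ± 0.21, SE; limma, adjusted p = 0.148). Dusp1 was at 149 and 226 in KO, against 269 and 181 in WT (log2 fold change −0.27 ± 0.37, SE). Nr4a1 was at 53.8 and 56.1 in KO, against 56.7 and 72.2 in WT (log2 fold change −0.22 ± 0.44, SE). Egr3 was at 1.06 and 3.40 in KO and 2.03 and 0 in WT. The call of 1 of 8 tested members stands against 47.5% of 12000 genes called by limma (23% lower in KO), 45.6% by edgeR and 48.9% by DESeq2, and the 4 without overlap stand against 80.3%.

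**Figure D3:**
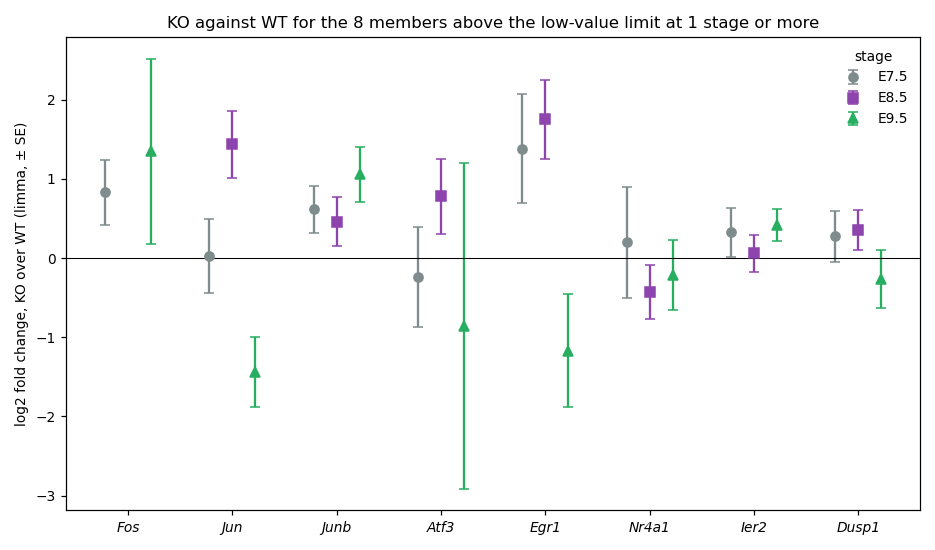
limma log2 fold change of KO over WT with its standard error for the 8 members above the low-value limit at some stage, E7.5, E8.5 and E9.5 side by side for each gene. Jun is at 1.44 at E8.5 and −1.44 at E9.5, and the error of Atf3 at E9.5, 2.06, spans 0.

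The sign of several members at E9.5 depended on the scale. The deposited values correspond to 13.04 and 14.6 units per RPM in the KO libraries and 7.39 and 7.5 in the WT libraries, a ratio of means of 1.86, whereas that ratio was 1.002 at E7.5 and 0.898 at E8.5. The 50 most abundant genes took 20.02% and 19.2% of reads in KO and 12.96% and 12.3% in WT. With all libraries scaled to total reads, the median log2 fold change of all genes was −1.01 in place of −0.14. Jun was then at −2.32 (adjusted p = 0.0112, limma), which is −1.31 relative to that median, against −1.30 on the deposited scale. Ier2 was at −0.47 in place of 0.42, and Junb at 0.17 in place of 1.06, which relative to the medians are 0.53 and 0.55 for Ier2 and 1.18 and 1.19 for Junb, total reads given before the deposited scale. Dusp1 was at −1.15 (adjusted p = 0.0395), close to the median of all genes, and with it 2 members were called on this scale, against 56% of genes.

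Transcript length also moved with genotype at E9.5. Across 11578 genes, which are not independent replicates, the Spearman correlation of level with length was −0.474 and −0.580 in the KO libraries and 0.599 and 0.658 in the WT libraries, and that of the log2 fold change with length was −0.641. Ier2 and Junb, higher in KO, are short: 12.7% and 17.8% of tested genes are shorter. Jun lies at 47.0% and Egr1 at 70.7%. With a trend on length and GC content removed, Ier2 was at −1.33 (adjusted p = 0.00573), Junb at −0.33 (0.421), Dusp1 at −1.19 (0.0385) and Jun at −1.55 (0.0476), all by limma. The median log2 fold change of all genes in that fit was −0.45, so Junb lay below 0 but above the median. Then 3 members were called, all lower in KO, against 31.6% of genes. At E8.5 the correlation of level with length varied within both genotypes, from −0.415 (KO4) to 0.473 (KO3) in KO and from −0.438 (WT1_5s) to 0.497 (WT3) in WT. Between libraries of like correlation, Jun was at 230 in KO3 against 99.7 in WT3, and at 128 in KO4 against 97.5 in WT1_5s and 109 in WT2.

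**Figure D4:**
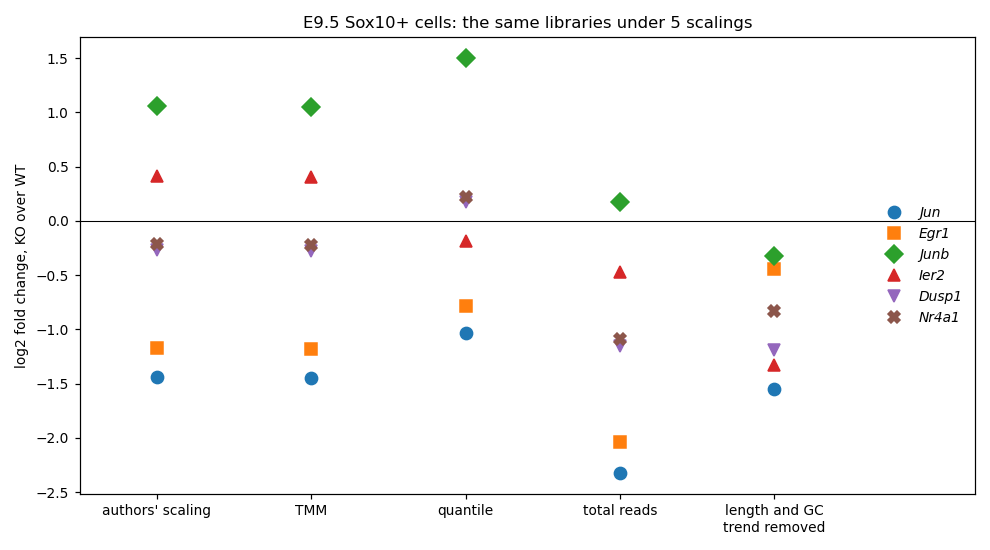
log2 fold change of KO over WT at E9.5 for 6 tested members under the authors' scale, TMM, quantile normalisation, total read scaling and removal of a length and GC trend, 1 symbol per gene. Jun is below 0 under each of them, from −1.03 to −2.32, while Ier2 is above 0 on the authors' scale (0.42) and with TMM and below 0 under the other 3.

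The genes that surround the members in the response were described from lists. Among 22 other immediate early transcription factors and regulators, 17 were tested at E7.5 with 0 called, 15 at E8.5 with 0 called, and 13 at E9.5 with 3 called higher and 1 lower in KO, where 47.5% of all genes were called (24.5% higher, 23% lower). Their median log2 fold changes were 0.28, 0.04 and −0.43, beside −0.01, −0.03 and −0.14 for all genes. Egr2, which patterns the hindbrain, was at 65.8, 72.9, 75.2 and 19.7 normalised counts in E8.5 KO1 to KO4, against 4.06, 40.5 and 2.93 in WT. Egr2 had its lowest KO value in KO4 and its highest WT value in WT2, as Egr1 had, and the 2 groups overlapped. Its log2 fold change was 2.49 ± 0.80 (SE; limma, adjusted p = 0.807; 0.0443 with the replicate block). That block was chosen from these same values and leaves out KO4. Btg2, an antiproliferative factor, was at 111 to 179 in E8.5 KO, against 90.9 to 99.7 in WT (1.55-fold; limma, adjusted p = 0.807), and Maff, a small Maf factor, at 25.0 to 46.4, against 36.9 to 69.1. At E7.5 Fosl1, an AP-1 subunit known from trophoblast, was at 64.0 and 91.4 in KO, against 33.9 and 41.5 in WT (2.01-fold; limma, adjusted p = 1.0), and its fellow listed genes Jund and Myc had 1.56-fold and 1.45-fold higher KO values.

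At E9.5 Myc, a regulator of growth, fell to 397 ± 122 in KO, against 1084 ± 35.7 in WT (SD, n = 2 each; log2 fold change −1.48; limma, adjusted p = 0.00944). Maff rose 6.72-fold, to 86.6 ± 19.4 in KO, against 11.9 ± 0.385 in WT (adjusted p = 0.0137), and Jund, the constitutively expressed Jun paralog, rose 2.85-fold, to 764 ± 29.9, against 283 ± 133 (adjusted p = 0.0223), a difference that was −0.04 on the log2 scale with the length and GC trend removed. Maff, Gadd45b, Spry4, Spred1, Mapk3 and Hspe1, also named here as called at E9.5, missed the threshold with that trend removed. Their adjusted p by limma was then 0.0525 to 0.389. Cyr61, named below as called, was not in that fit, so its dependence on the trend is not known.

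Early response effectors, 25 genes that act downstream or beside the transcription factors, had 23 tested and 0 called at E7.5, 23 tested and 0 called at E8.5, and 22 tested with 2 called higher and 5 lower in KO at E9.5, beside the same 47.5% of all genes. Their median log2 fold changes were 0.14, 0.09 and −0.40. At E8.5 Phlda1, a PH-domain protein known to restrain AKT signalling, was at 520, 393, 670 and 751 in KO1 to KO4, against 1745, 1684 and 1492 in WT, with every KO library, KO4 included, below every WT library. Its log2 fold change was −1.53 ± 0.24 (SE; limma, adjusted p = 0.256; 0.0120 with the replicate block; 0.000101 by DESeq2). Plk2, a stress-responsive kinase, was at 101 to 187 in KO, against 37.9 to 87.2 in WT (2.44-fold; limma, adjusted p = 0.776). Gadd45g, a stress sensor, was at 78.2 to 265 in KO, against 33.2 to 90.9 in WT (2.66-fold; limma, adjusted p = 0.807, and 0.0478 with the block). For Phlda1 and Gadd45g too, the block was chosen from these same values and leaves out KO4. At E7.5 the listed examples were Gadd45b at 2.44-fold, Plk3 at 1.91-fold and Mcl1 at 1.65-fold, each with both KO libraries above both WT libraries (limma, adjusted p = 1.0 for each).

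At E9.5 Cyr61, a matricellular target of YAP and SRF, fell to 164 ± 70.2 in KO, against 805 ± 95.5 in WT (SD, n = 2 each; log2 fold change −2.36; limma, adjusted p = 0.00578). Plk2 fell to 147 ± 44.4, against 410 ± 2.72 (−1.51; adjusted p = 0.0142). Gadd45b rose to 60.2 ± 29.8, against 2.53 ± 0.709 (4.04; adjusted p = 0.0136), a gene with 2 and 6 reads in the WT libraries. Plk2 thus had higher values in KO at E8.5 and fell at E9.5, as Jun did, and the difference between stages was not tested.

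The brakes of the pathway, 14 MAP kinase phosphatases and feedback inhibitors other than Dusp1, had 13 tested and 0 called at E7.5, 12 tested and 0 called at E8.5, and 12 tested with 0 called higher and 4 lower at E9.5, where 23% of all genes were called lower and 47.5% in either direction, and median log2 fold changes of 0.08, −0.19 and −1.51 in stage order. At E9.5 Dusp6, which switches off ERK, fell to 459 ± 113 in KO, against 1575 ± 143 in WT (SD, n = 2 each; log2 fold change −1.80; limma, adjusted p = 0.00394). The receptor signalling inhibitor Spry4 fell to 39.1 ± 0.031, against 154 ± 0.363 (−1.95; adjusted p = 0.0126), and Spred1 to 149 ± 122, against 1089 ± 196 (−3.14; adjusted p = 0.0130). At E8.5 Dusp6 had values of 691 to 879 in KO, against 439 to 625 in WT (1.40-fold; adjusted p = 0.815), Dusp16 1.72-fold higher values, and Spry2 a log2 fold change of −0.75. At E7.5 Spred1, Dusp7 and Spry1 had 1.80-fold, 1.73-fold and 1.56-fold higher values in KO, none of them called.

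Of 24 upstream kinases and transcription factors all were tested at each stage, with 0 called at E7.5, 0 at E8.5, and 2 called higher and 5 lower at E9.5 (47.5% of all genes called), and medians of 0.15, 0.01 and −1.05. The ERK cascade genes Map2k2 and Mapk3 rose 2.63-fold and 3.05-fold at E9.5, to 3630 ± 104 and 1143 ± 156 in KO, against 1380 ± 118 and 372 ± 26.2 in WT (SD, n = 2 each; limma, adjusted p = 0.00236 and 0.00362). On the log2 scale these were 1.40 and 1.61, against 0.51 and 0.72 with total read scaling and 0.67 and 0.18 with the trend removed, Map2k2 before Mapk3. Mapk14, the stress kinase p38α, fell to 425 ± 50.2, against 1188 ± 138 (log2 fold change −1.48; adjusted p = 0.00446). At E7.5 Srf, the factor that binds the serum response element, was at 337 and 362 in KO, against 254 and 138 in WT (1.86-fold; limma, adjusted p = 1.0), with Mef2d at 1.61-fold and Rps6ka1 at 1.60-fold. At E8.5 the listed examples were Atf1 at −0.31, Mkl1 at −0.51 and Mapk8 at −0.41 on the log2 scale, all with overlap.

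Heat shock genes are a second class known to respond to tissue dissociation, and 14 were followed. All 14 were tested at each stage, with 0 called at E7.5 and E8.5 and 3 called higher and 5 lower at E9.5 (47.5% of all genes called), and medians of 0.20, 0.04 and −0.25. At E8.5 Hspa1a, an inducible HSP70 gene, was at 39.96, 32.3, 36.7 and 39.4 in KO1 to KO4, against 9.48, 76.2 and 6.84 in WT1_5s, WT2 and WT3. Its neighbour Hspa1b, a near-identical copy with which reads can be shared, was at 78.4, 53.1, 52.3 and 61.4 in KO, against 10.8, 103 and 5.87 in WT. WT2 was the highest library of the stage for both, and WT1_5s and WT3 were the lowest, so the WT libraries spanned all KO values. The KO libraries were close to each other, KO4 included, in which Jun and Egr1 were near WT. Hspb1 had values of 5.41 to 54.9 in E8.5 KO, against 1.35 to 17.2 in WT. At E7.5 the examples Dnajb4, Hspa1b and Hspb1 had log2 fold changes of −0.88, 0.81 and 0.37.

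At E9.5 the mitochondrial chaperone Hspe1 rose to 32273 ± 4350 in KO, against 7690 ± 162 in WT (SD, n = 2 each; 4.18-fold; limma, adjusted p = 0.000820). Its log2 fold change was −0.39 once the length and GC trend was taken out, beside a median of −0.45 over all genes. Hspa5, the chaperone of the endoplasmic reticulum, fell to 4449 ± 258, against 14995 ± 41.0 (−1.75; adjusted p = 0.000840), and Hsph1, a cytosolic co-chaperone, to 466 ± 248, against 2193 ± 223 (−2.34; adjusted p = 0.00761).

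The genes whose E8.5 pattern was most like the members' were found by Pearson correlation with the mean standardised level of the 7 tested members, over 7 libraries and 8010 genes with a mean of at least 100 normalised counts. That mean level was 0.72, 0.69, 0.07 and −0.15 SD in KO1 to KO4, against −0.47, 0.24 and −1.10 in WT1_5s, WT2 and WT3. The closest were Peli1 (r = 0.996), an E3 ubiquitin ligase, Rsrc1 (0.982), a splicing factor, Anp32e (0.981), a histone chaperone of H2A.Z, Dld (0.977), a mitochondrial dehydrogenase subunit, Gm14325 (0.974) and Cars (0.971), the cysteinyl-tRNA synthetase. With 7 libraries that share their preparation and differ in depth, such values describe these libraries only.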

How the data were processed

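RNA from whole embryos (E7.5) or sorted cells (E8.5, E9.5) was turned into libraries with SMART-Seq v4 and Nextera XT, which do not mark strand, per the labels' protocols, so antisense or overlapping genes cannot be told apart. FastQC 0.11.5, STAR 2.7.0f and mm10 are named in the submitters' processing notes, and the sources used here name no read counter, gene annotation or normalising tool. The authors deposited a normalised signal per gene and library, here called normalised counts. The authors' deposited tables of selected genes hold a mean signal, log2 fold changes with errors, a test score and p-values, per the file headers, and served for comparison only. The reads of a library are whole multiples of 1 unit, and 100% of values came out whole within 0.01 read, which gave read counts, RPM and depth (4912827 to 14861728 reads).

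Groups came from the titles. The library titled KO4_5s was not analysed here. Each stage was fitted on its own with limma 3.58.1 (R 4.3.3), a moderated two-sided test on log2(value + 1) for genes with a mean of at least 10, with Benjamini-Hochberg adjustment at 0.05 over all genes. Fold changes are on that scale, which understates low genes. Alternatives were DESeq2 1.42.0 and edgeR 4.0.16 with its quasi-likelihood test, both on recovered reads, quantile and TMM scaling, total read scaling, other pseudocounts and minimums, a loess trend on transcript length and GC content, a replicate block, a code-number block and left-out libraries. Only the main limma test was checked on simulated counts, with 200 genes changed by 2-fold or 4-fold. Of the 2-fold changes, 85%, 99% and 76% were recovered at E7.5, E8.5 and E9.5. The simulated spread was set and not taken from these libraries, so these shares do not carry over to them.

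Whether replicate numbers pair KO and WT libraries was read from the correlation of their deviations from the group means, since the labels do not say. At E8.5 it was 0.179, 0.200 and 0.493 for the numbers 1, 2 and 3, so the numbers were taken to pair the libraries there. The pairing was thus chosen from the same values that the block then tested. Paired libraries differ in code number (KO1 128 and WT1_5s 163, KO2 128 and WT2 169, KO3 157 and WT3 214). KO4, which shares 169 with WT2, is left out. KO3 and WT3 are also alike in the correlation of level with transcript length (0.473 and 0.497). The members and lists were chosen with earlier results of these data known. Named genes are the 10 members, and in each list and stage the 3 with the smallest unadjusted p. Sequences are from RefSeq (GRCm38.p6) and annotation from GENCODE M21.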

Additional observations from a re-analysis of the deposited data

Results flagged for a closer look

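At E8.5, 1 KO library lay far from the others for 2 members. Junb in KO3 was at 87.2 normalised counts, against 140, 143 and 145 in KO1, KO2 and KO4, and this gap was 0.920 of the whole range of the KO group. Atf3 in KO4 was at 13.9, against 29.8, 32.3 and 31.9 in KO1, KO2 and KO3, a gap of 0.864 of the range. The rule was applied to 7 members in this KO group, all measured in the same libraries. Chance alone flags about 1 in 20 such groups where values are independent and normally distributed, which was not tested here.

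Jun differed in direction between stages. Every KO library was above every WT library at E8.5 (128 to 535 in KO, 97.5 to 109 in WT) and below every WT library at E9.5 (128 and 131 in KO, 234 and 528 in WT), and the log2 fold change at E9.5 minus that at E8.5 was −2.87. The difference was not tested, since the stages were normalised in separate tables and the cells were sorted on different markers.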

How the results depend on the processing

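Total read scaling was chosen after seeing the data. At E7.5 the 0 genes called became 34 with DESeq2, 47 with the replicate block and 12 to 38 with each library left out. At E8.5 the 0 became 32 with DESeq2, 664 with the block and 0 to 3 with each library left out, and the 0 members called became 2 with the block. At E9.5 the 5700 genes became 3655 with the length and GC trend removed and 1920 (without WT2) to 8689 (without KO1) with each library left out. The count of 1 member called there, Jun, became 0 with a pseudocount of 0.1 or no minimum, and 2 with total read scaling (Jun and Dusp1). That count was 3 with the trend removed (Jun, Ier2 and Dusp1) and 2 at an adjusted p threshold of 0.1. With quantile normalisation it stayed at 1, but the member called was Junb, higher in KO (limma, adjusted p = 0.0207), in place of Jun (0.142). Reversed log2 fold changes at E7.5 were those of Jun (0.03 as reported; −0.00785 with quantile normalisation, −0.14 with edgeR, −0.15 with DESeq2, −0.16 with the trend removed). At E8.5 Ier2 was at −0.0576 with the block. At E9.5 they were Junb (−0.33, trend removed), Ier2 (−0.19 quantile, −0.47 total reads, −1.33 trend removed), Atf3 (0.12 with a pseudocount of 8, 1.10 with edgeR and with DESeq2), Dusp1 (0.17) and Nr4a1 (0.22), the last 2 with quantile normalisation. The median of all genes was itself −0.45 with the trend removed and −1.01 with total reads. Leaving out libraries gave E7.5 ranges of −0.61 to 0.13 for Atf3, −0.65 to 0.71 for Jun and −0.59 to 0.98 for Nr4a1, an E8.5 range of −0.12 to 0.21 for Ier2, and E9.5 ranges of −3.86 (without KO1, adjusted p = 0.0141) to 2.15 (without KO2) for Atf3, −0.57 to 0.0333 for Dusp1 and −0.0080 to 2.71 for Fos. The cause of these changes was not tested. With the block at E7.5 and E9.5, where deviations of same-numbered libraries correlated at −0.117 and −0.171 over 2 pairs and the libraries share only a number, 47 and 5722 genes were called, and no member call changed; the block changed no other call of a member than those given for E8.5. The median over all 10 members was recomputed for pseudocounts, total reads and left-out libraries only, and at E9.5 it was 0.06 (−0.24 with a pseudocount of 0.1, −0.78 with total read scaling), while over the 8 tested members alone it was −0.24. Genes with few reads, Fosb, Egr3 and E8.5 Fos, were limited by depth.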
